A study of Homo sapiens with 6 samples.

Results

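ER-associated degradation (ERAD) is the route by which cells remove misfolded proteins from the endoplasmic reticulum. In this route, mannose residues are trimmed from the glycans of a terminally misfolded protein, lectins read the trimmed glycan and hand the protein to a ubiquitin ligase in the membrane, and an ATPase in the cytosol pulls the ubiquitylated chain out to the proteasome. Many of its genes are known targets of the unfolded protein response, and secretory epithelia such as the prostate depend on it. The 10 genes described here were chosen by name as the core of this machinery, with earlier results of these data known. They are the ligase SYVN1 (HRD1) with its partners SEL1L and HERPUD1, the derlins DERL1, DERL2 and DERL3, the mannose-trimming proteins EDEM1, EDEM2 and EDEM3, and the lectin OS9. All 10 were among the 29804 gene symbols of the count table and among the 14672 genes tested.

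RNA was sequenced from 22Rv1 cells, an established human prostate carcinoma line, in 3 groups of 2 libraries. The WT group was the untreated line at week 0. Age matched (AM) cells were grown for 6 weeks without the drug, and 6WP cells received phleomycin, a radiomimetic that breaks DNA, at 1 µg/ml on every week day for 6 weeks. After 1 hour on each of these days the drug was removed, and the cells were rinsed and given fresh medium. The study's methods do not state whether AM cells were rinsed and fed in the same way. All 3 groups were cultured in RPMI with FBS, penicillin and streptomycin and carried the same genotype label (WT), so every library came from 1 cell line and no other model was tested. AM and 6WP cells were harvested at the same time, so 6WP against AM compares cells of equal time in culture, AM against WT compares times, and 6WP against WT combines both. These 3 comparisons share libraries and are not independent of each other.

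The libraries held between 21222201 and 35311945 counts, and 3 counts, taken as the detection limit, equalled 0.0883 to 0.138 CPM (counts relative to the library total, TMM normalized). Such limits cover counting error only. All 10 prostate luminal markers were above that limit in all 6 libraries, and their summed CPM ran from 2982 to 3137 for WT, 1934 to 2286 for AM and 2468 to 3455 for 6WP. The endothelial markers CDH5 and KDR, the leukocyte markers PTPRC and CD3E and the basal marker KRT5 had 0 counts in every library. The fibroblast markers summed to between 1.74 and 4.23 CPM, with 2 of 6 above the limit throughout. Replicates of WT differed with a median SD of 0.0801 on the log2 CPM scale, those of AM with 0.0842 and those of 6WP with 0.181, so the phleomycin-treated libraries were the more variable pair. The p-values measure only the spread between these libraries, which the labels call biological replicates. This spread was pooled over all groups, so standard errors and p-values of AM against WT include the spread of the 6WP libraries. For EDEM3, the standard error of AM against WT was 0.176 in the pooled fit and 0.0776 in a fit to WT and AM only. With only the groups compared in the fit, calls over all genes went from 2593 to 6635 in AM against WT. In 6WP against AM they went from 3131 to 1299. In bulk RNA, fewer cells expressing a gene and less RNA per cell cannot be told apart.

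The promoters of the ligase complex are shown first, because all 3 genes were called in both comparisons with AM cells and differ in the unfolded protein response elements that their promoters hold. The sequences are the 250 bases before the RefSeq start, read 5′ to 3′ on the strand of the gene (GRCh38.p14). In HERPUD1 (chr16:56931892-56932141, plus strand), SEL1L (chr14:81533854-81534103, minus strand) and SYVN1 (chr11:65134520-65134769, minus strand), capitals mark whole elements and the half-sites CCAAT and CCACG on either strand.
HERPUD1: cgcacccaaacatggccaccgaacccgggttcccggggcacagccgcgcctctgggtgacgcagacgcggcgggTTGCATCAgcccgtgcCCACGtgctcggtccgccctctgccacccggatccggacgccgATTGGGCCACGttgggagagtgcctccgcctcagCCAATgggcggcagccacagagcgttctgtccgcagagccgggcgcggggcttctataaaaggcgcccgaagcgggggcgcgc
SEL1L: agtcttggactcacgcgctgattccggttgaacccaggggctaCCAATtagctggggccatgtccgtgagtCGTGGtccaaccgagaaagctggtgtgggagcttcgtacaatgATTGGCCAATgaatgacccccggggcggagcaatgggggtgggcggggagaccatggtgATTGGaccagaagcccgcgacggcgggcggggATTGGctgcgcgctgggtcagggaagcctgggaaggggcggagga
SYVN1: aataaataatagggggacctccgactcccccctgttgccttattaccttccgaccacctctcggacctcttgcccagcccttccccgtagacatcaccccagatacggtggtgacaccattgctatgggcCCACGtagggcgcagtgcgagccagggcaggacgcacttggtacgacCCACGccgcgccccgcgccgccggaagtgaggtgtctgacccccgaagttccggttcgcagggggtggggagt

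HERPUD1 held the element ERSE-II (ATTGGNCCACG) as ATTGGGCCACG at chr16:56932025-56932035, which is 117 to 107 bases before the start. It also held the ATF4 response element (TGATGNAA) on the opposite strand, at chr16:56931966-56931973, 176 to 169 bases before the start. RefSeq windows, from 250 bases before to 50 after the start, were at hand for 8 of the 10 genes and not for DERL1 and DERL3. Over both strands, ERSE-II was in 1 of these 8 windows and in 0.0541% of all 35116 windows, and the ATF4 response element was in 1 of 8 against 3.62% of all. The element ERSE (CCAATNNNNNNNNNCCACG) was in 0 of the 8 and in 0.0769% of all windows, and the element UPRE (TGACGTGG) was in 0 of the 8 and in 0.729% of all. Only exact matches to these letters were counted. In HERPUD1, the last CCAAT before the start is followed, at the spacing of ERSE, by CCACA in place of CCACG. Among 12 ER chaperones and folding enzymes used for comparison, 11 had a window, and 6 of these 11 held ERSE.

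The half-sites are parts of ERSE and ERSE-II and short enough to occur often. CCAAT was in 6 of the 8 windows against 34.6% of all, and CCACG was in 6 of 8 against 38.1% of all. In the 250 bases shown, SEL1L had 5 CCAAT and 1 CCACG half-sites, and SYVN1 had 0 CCAAT and 2 CCACG. A match describes the letters only, since no factor was measured at these promoters, and the absence of a match says only that these letters are not in the window.

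AM cells held the most RNA of the ERAD genes and 6WP cells the least. Summed over the 10 genes, the level was 1215 and 1211 CPM for WT, 1701 and 1747 CPM for AM, and 1002 and 1076 CPM for 6WP. For 8 of the 10 genes both AM libraries lay above the other 4 libraries, which held for 21.7% of all tested genes, and EDEM2 and EDEM3 were the 2 exceptions. For 8 of the 10 genes both 6WP libraries lay below the other 4, against 12.2% of all tested genes, and EDEM2 and OS9 were the exceptions here.

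**Figure D1:**
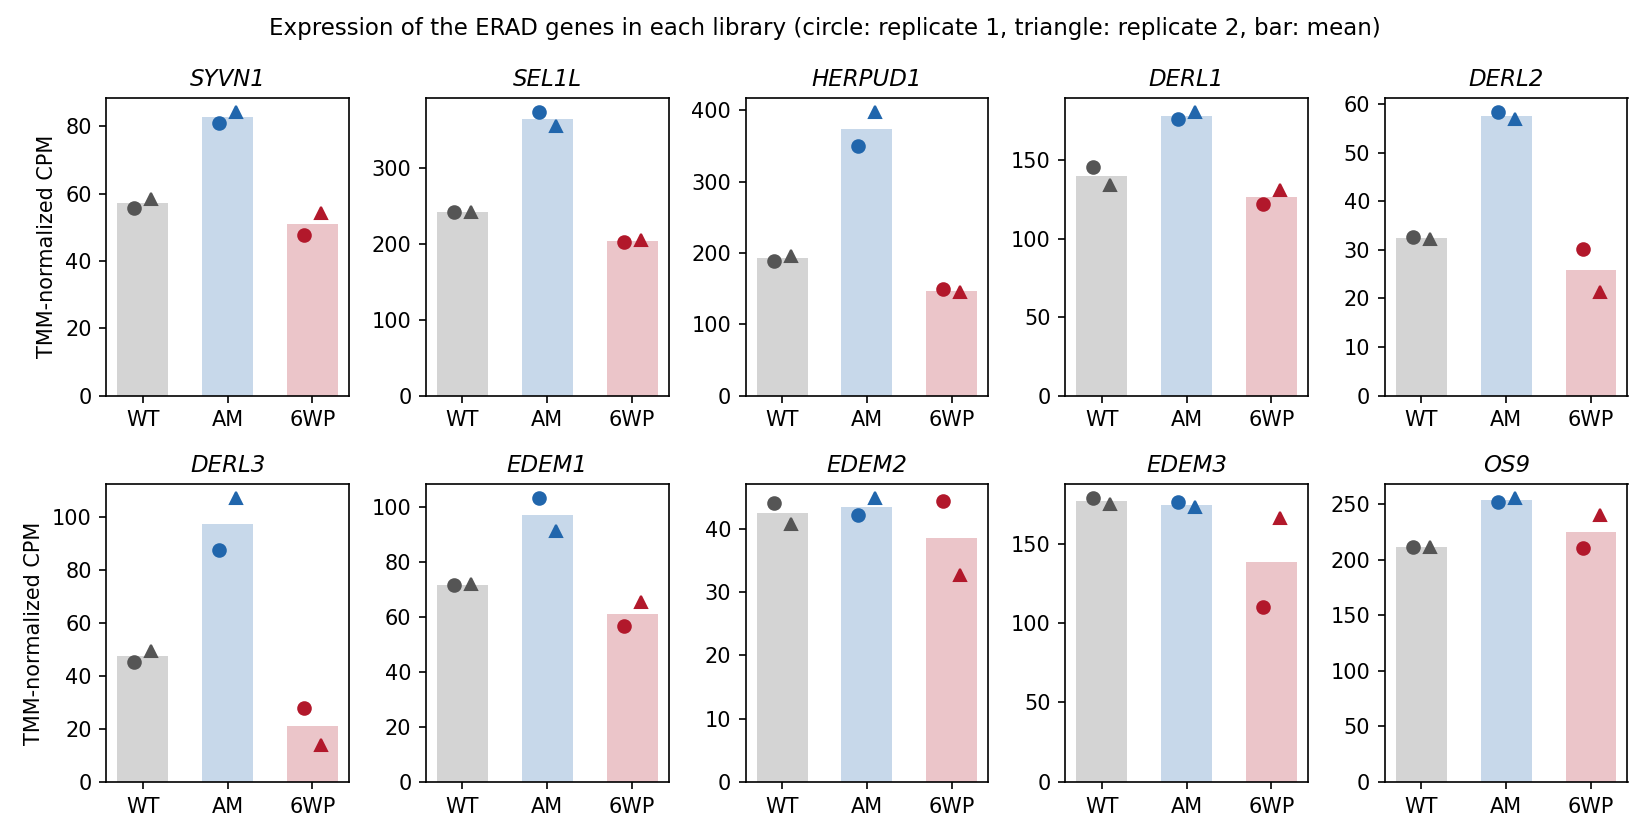
TMM-normalized CPM (y axis, from 0) of the 10 ERAD genes in WT, AM and 6WP cells, with a circle for replicate 1, a triangle for replicate 2 and a bar for the mean of the 2 libraries. The AM bar is the tallest for 9 of the genes, all but EDEM3, and the 6WP bar is the lowest for 9, all but OS9.

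AM cells were compared with WT cells, which sets 6 weeks of culture without the drug against week 0. Any other difference between these harvests cannot be told apart from time in culture. 6 of the 10 ERAD genes rose (SYVN1, SEL1L, HERPUD1, DERL2, DERL3 and EDEM1) and 0 fell at an adjusted p under 0.05 (edgeR quasi-likelihood test), where 7.74% of all tested genes were called higher, 9.93% lower and 17.7% in either direction. The median log2 fold change of the 10 genes was 0.49, beside a median of -0.0023 over all tested genes. The AM and WT libraries did not overlap for 8 of the 10 genes, all of them higher in AM cells, and 36.9% of all tested genes were higher without overlap. Without WT replicate 1, WT replicate 2 or AM replicate 2 the count was 0, and without AM replicate 1 it was 1 (HERPUD1). In the same 4 fits the calls over all genes dropped from 2593 to between 46 and 123. Upper quartile scaling and scaling by library size each left 4, without DERL3 and EDEM1.

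6WP cells were compared with AM cells at equal time in culture. In this comparison the drug cannot be told apart from the rinsing and fresh medium after each dose, or from survival of only part of the cells. 7 of the 10 ERAD genes fell (the 6 above and DERL1) and 0 rose, where 9.68% of all tested genes were called lower and 21.3% in either direction. The median log2 fold change was -0.68, beside 0.05 over all tested genes, and all 10 estimates were negative. For 9 of the 10 genes both 6WP libraries lay below both AM libraries, against 28.5% of all tested genes. The same 7 genes were called under the 3 other scalings, the 2 other filters, DESeq2's Wald test and a fit to these 2 groups only. Leaving out AM replicate 1 kept 2 of the 7 (HERPUD1 and DERL3), leaving out AM replicate 2 kept 1 (HERPUD1), and leaving out either WT library kept 6 (all but DERL1). Without AM replicate 1 or 2, the calls over all genes dropped from 3131 to 120 and 115.

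Against WT cells, 0 of the 10 ERAD genes passed the threshold in 6WP cells (edgeR), where 3.00% of all tested genes did, 1.63% higher and 1.37% lower. SEL1L, HERPUD1 and DERL3 had an unadjusted p under 0.05, which makes 3 of 10, close to the 22.4% of all tested genes at that level. DESeq2's Wald test called 2, HERPUD1 and DERL3, both lower in 6WP cells, among 1124 genes in all. The 6WP libraries lay below both WT libraries for 8 of the 10 genes, against 25.2% of all tested genes, and the median log2 fold change was -0.24, beside 0.01 over all. The count rose to 4 without either 6WP library, while the calls over all genes rose from 440 to 3801 without 6WP replicate 1 and to 3767 without replicate 2. Without 6WP replicate 1 the 4 genes were HERPUD1, DERL2, DERL3 and EDEM2, and without 6WP replicate 2 they were HERPUD1, DERL3, EDEM1 and EDEM3.

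**Figure D2:**
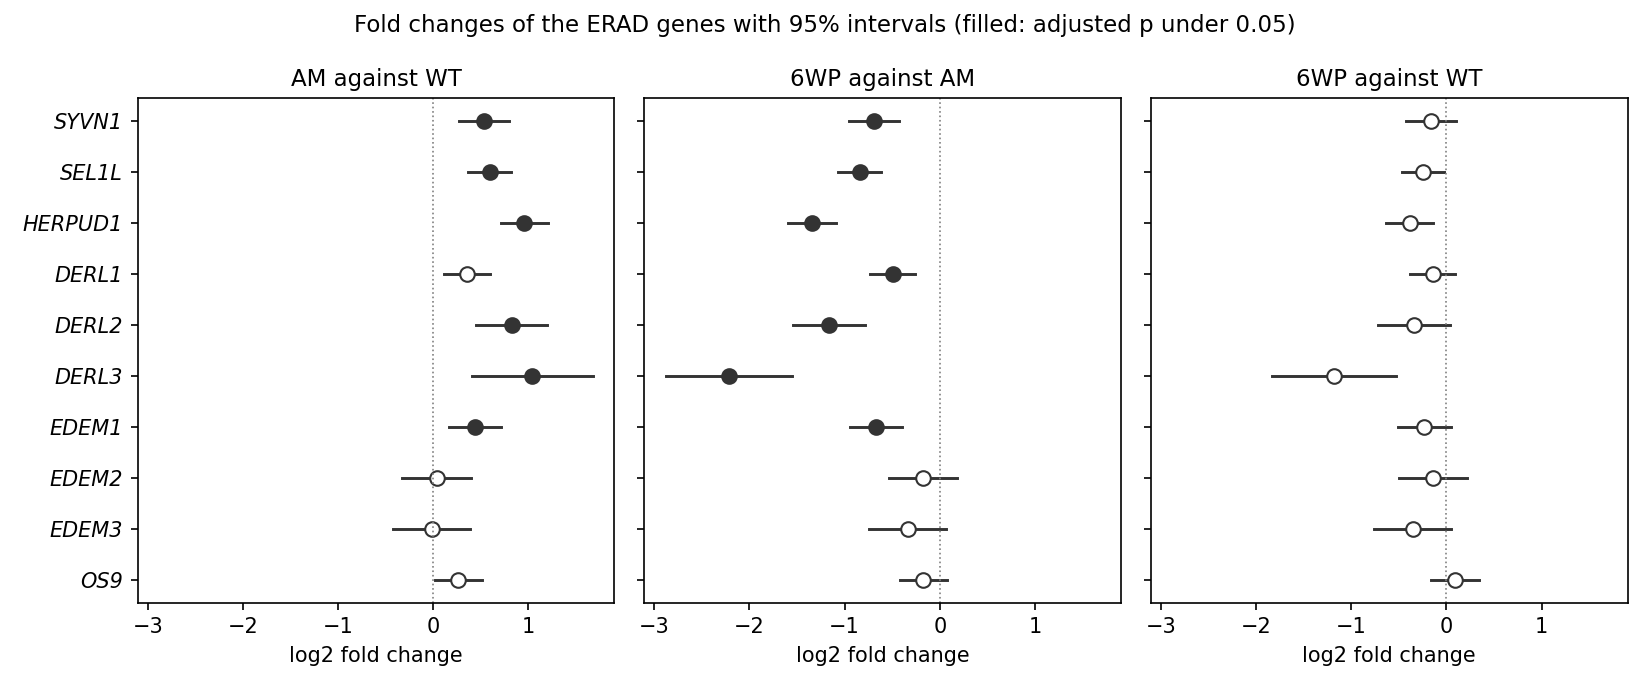
log2 fold change (x axis) of each ERAD gene (rows) in the 3 comparisons (panels), with 95% intervals from the quasi-likelihood fit, filled where the adjusted p is under 0.05. Filled points lie to the right of 0 for 6 genes in AM against WT and to the left for 7 genes in 6WP against AM, and no point is filled in 6WP against WT.

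SYVN1, SEL1L and HERPUD1 were all called in both comparisons with AM cells. Gene positions are those of GENCODE on GRCh38. HERPUD1 (chr16:56932142-56944864), a membrane protein with a ubiquitin-like domain that joins the complex and is made in large amounts during ER stress, was at 189 and 196 CPM for WT, 351 and 398 for AM, and 150 and 145 for 6WP. The 3 groups did not overlap, with AM highest and 6WP lowest. It rose 1.94-fold in AM against WT cells (log2 0.96, SE 0.11, adjusted p = 0.00321, edgeR) and was 2.54-fold lower in 6WP than in AM cells (log2 -1.34, SE 0.11, adjusted p = 0.00164, edgeR). The latter was the 15th smallest p of all 14672 genes tested, and it stayed past the threshold under each of the 14 alternatives, with log2 values from -1.43 to -1.25. Against WT cells the difference was -0.38 on the log2 scale (SE 0.11, 95% interval -0.63 to -0.14, adjusted p = 0.0939, edgeR).

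SEL1L (chr14:81471547-81533853), the adaptor that stabilizes the ligase and receives its substrates, was at 242 CPM in both libraries for WT, at 374 and 356 for AM, and at 203 and 205 for 6WP. Its replicates lay close together and no groups overlapped. It rose by 0.59 on the log2 scale in AM against WT cells (SE 0.10, adjusted p = 0.00914, edgeR) and fell by 0.84 in 6WP against AM cells (SE 0.10, adjusted p = 0.00305, edgeR). The interval of 6WP against WT was -0.47 to -0.02 (adjusted p = 0.193, edgeR).

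SYVN1 (chr11:65121780-65134532), the ubiquitin ligase itself, was at 55.7 and 58.5 CPM for WT, 81.1 and 84.2 for AM, and 47.8 and 54.4 for 6WP. AM was again above the other groups, and the upper 6WP library was close to the lower WT library. The log2 fold change was 0.53 in AM against WT (SE 0.11, adjusted p = 0.0195, edgeR) and -0.69 in 6WP against AM (SE 0.11, adjusted p = 0.00759, edgeR). Between 6WP and WT it was -0.16, with an interval of -0.42 to 0.10 (adjusted p = 0.446, edgeR).

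The derlins are multispanning membrane proteins thought to form part of the passage through which substrates leave the ER. DERL3 (chr22:23834503-23839128) was at 45.1 and 49.6 CPM for WT, 87.6 and 107 for AM, and 28.0 and 13.9 for 6WP, and no groups overlapped. In proportion, the 6WP replicates of this gene lay farther apart than those of the other groups. It was 4.65-fold lower in 6WP than in AM cells (log2 -2.22, SE 0.29, adjusted p = 0.00397, edgeR), which was the largest fold change among the 10 genes, and 2.06-fold higher in AM than in WT cells (log2 1.04, SE 0.28, adjusted p = 0.038, edgeR). Against WT cells the log2 difference was -1.18, with an interval of -1.83 to -0.53 and an adjusted p of 0.0675 (edgeR). It was called lower there without a filter on low counts and by DESeq2. Without 6WP replicate 1 the log2 value was -2.81 against AM and -1.77 against WT, and without replicate 2 it was -1.82 and -0.76.

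DERL3 needs care in counting. On chromosome 22, 2923 bases of its merged exons, or 77.0%, overlap exons of SMARCB1, a chromatin remodelling gene on the opposite strand. Of the canonical DERL3 transcript, 88.81% overlaps them. The libraries were made with a stranded kit, but the strand setting of the counting was not given in the sources used here, and without strand the reads of both genes cannot be told apart. SMARCB1 was at 118 and 107 CPM for WT, 146 and 160 for AM, and 139 and 108 for 6WP. Its log2 fold change was -0.31 in 6WP against AM (adjusted p = 0.147, edgeR) and 0.44 in AM against WT (adjusted p = 0.0662, edgeR), both smaller in size than those of DERL3. Whether shared reads entered the DERL3 values was not tested.

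DERL2 (chr17:5471254-5486811) was at 32.7 and 32.3 CPM for WT, 58.3 and 56.9 for AM, and 30.2 and 21.4 for 6WP. No groups overlapped, although the higher 6WP library was near WT. Its log2 fold change was 0.82 in AM against WT (SE 0.16, adjusted p = 0.0154, edgeR) and -1.16 in 6WP against AM (SE 0.16, adjusted p = 0.00523, edgeR). Between 6WP and WT it was -0.34 (adjusted p = 0.274, edgeR).

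DERL1, which is known to bind the ATPase VCP, was at 146 and 134 CPM for WT, 176 and 181 for AM, and 122 and 131 for 6WP. Its changes were the smallest of the 3 derlins in each comparison. It fell by 0.50 on the log2 scale in 6WP against AM cells (SE 0.10, adjusted p = 0.0161, edgeR). In AM against WT the log2 value was 0.35 and the adjusted p 0.0523 (edgeR), which was under 0.05 with DESeq2's size factors, with DESeq2's Wald test, in a fit to those 2 groups only and without either 6WP library. Exons of protein-coding genes on the opposite strand overlap smaller parts of the merged exons of DERL1 (4.79%, TBC1D31), DERL2 (4.72%, MIS12), SYVN1 (6.48%, MRPL49) and OS9 (8.56%, AGAP2) than of DERL3. In 6WP against AM, the log2 fold change of MIS12 was -1.21 (adjusted p = 0.00202, edgeR) and that of MRPL49 was -0.51 (adjusted p = 0.019, edgeR), and in AM against WT MIS12 rose by 0.52 (adjusted p = 0.0178, edgeR). AGAP2 rose by 0.72 in 6WP against AM (adjusted p = 0.0142, edgeR). In 6WP against WT, AGAP2 rose by 1.22 (adjusted p = 0.0083, edgeR) and MIS12 fell by 0.69 (adjusted p = 0.0225, edgeR). MIS12 and AGAP2 overlap 0 bases of the canonical transcripts of DERL2 and OS9. TBC1D31 overlaps 10.36% of the canonical transcript of DERL1, and MRPL49 overlaps 3.06% of that of SYVN1. On the same strand, FAU overlaps 2.37% of the merged exons of SYVN1 and 0 bases of its canonical transcript. FAU was at 448 and 462 CPM for WT, 494 and 571 for AM, and 544 and 587 for 6WP. A non-coding gene on the opposite strand overlaps 9.37% of the merged exons of EDEM1 and 9.68% of its canonical transcript. The part of shared reads in all these values was not tested.

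Of the mannose-trimming proteins, EDEM1 was called in both comparisons with AM cells, and EDEM2 and EDEM3 in neither. Differences between these genes were not tested. EDEM1 (chr3:5187646-5219958), which takes part in trimming and in delivering glycoproteins for disposal, was at 71.5 and 71.9 CPM for WT, 103 and 91.4 for AM, and 56.8 and 65.4 for 6WP. The groups did not overlap. It rose by 0.44 on the log2 scale in AM against WT (SE 0.12, adjusted p = 0.0415, edgeR) and fell by 0.67 in 6WP against AM (SE 0.12, adjusted p = 0.0101, edgeR).

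EDEM2 (chr20:35115364-35147336), the mannosidase that is thought to start the trimming, was at 44.2 and 40.7 CPM for WT, 42.2 and 44.8 for AM, and 44.3 and 32.7 for 6WP. All 3 groups overlapped. The log2 difference of AM from WT was 0.04 with an interval of -0.32 to 0.40 (adjusted p = 0.888, edgeR), and its sign turned under upper quartile scaling and scaling by library size. Against AM cells, 6WP cells differed by -0.17 (adjusted p = 0.445, edgeR).

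EDEM3 (chr1:184690237-184754907), which trims further mannose residues, was at 178 and 175 CPM for WT, 176 and 173 for AM, and 110 and 166 for 6WP. WT and AM overlapped, and the lower values of 6WP came mostly from replicate 1. The log2 value was -0.34 in 6WP against AM (SE 0.18, adjusted p = 0.201, edgeR) and -0.35 in 6WP against WT (SE 0.18, adjusted p = 0.282, edgeR). Without 6WP replicate 2 both passed the threshold, with -0.69 against AM cells.

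OS9 (chr12:57693841-57728342), the lectin that recognizes trimmed mannose chains and binds SEL1L, was at 211 and 212 CPM for WT, 252 and 255 for AM, and 210 and 241 for 6WP. Both AM libraries were the highest, and the 6WP libraries lay on either side of WT. The log2 fold change of AM against WT was 0.26 with an unadjusted p of 0.0402 and an adjusted p of 0.124 (edgeR). In 6WP against AM it was -0.17 (adjusted p = 0.28, edgeR), and in 6WP against WT 0.09 (adjusted p = 0.655, edgeR). OS9 shares 15.85% of its merged exons with the non-coding gene AGAP2-AS1 on the same strand, which the strand of a read does not separate. The log2 value of AGAP2-AS1 was 0.72 in 6WP against WT (adjusted p = 0.121, edgeR) and 0.55 in 6WP against AM (adjusted p = 0.114, edgeR). It overlaps 0 bases of the canonical OS9 transcript. Another non-coding gene, on the opposite strand, overlaps 26.06% of the canonical OS9 transcript. The part of shared reads was not tested.

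Per kilobase of merged exons, HERPUD1 had the highest level of the 10 genes and DERL2 the lowest in each of the 3 groups. HERPUD1 stood at 38.01 ± 0.87 CPM per kb for WT, 73.9 ± 6.6 for AM and 29.1 ± 0.59 for 6WP (SD, n = 2). DERL2 stood at 5.10 ± 0.043, 9.02 ± 0.16 and 4.04 ± 0.97 in the same order. Averaged over the 6 libraries, the highest level was 7.77 times the lowest. With the length of the canonical transcript in place of merged exons, OS9 ranked first in WT and 6WP cells and HERPUD1 in AM cells, while DERL2 stayed last in each group.

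Between these ends, the WT order by mean CPM per kb was SEL1L, OS9, EDEM2, DERL1, DERL3, EDEM1, SYVN1 and EDEM3, from 25.3 down to 9.50. In that order, EDEM1 and SYVN1 were the neighbours whose WT libraries overlapped. DERL3 stood at 12.5 ± 0.83 CPM per kb for WT, 25.6 ± 3.6 for AM and 5.52 ± 2.6 for 6WP. In AM cells its libraries overlapped those of DERL1 and EDEM2, and in 6WP cells those of EDEM3 and DERL2.

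**Figure D3:**
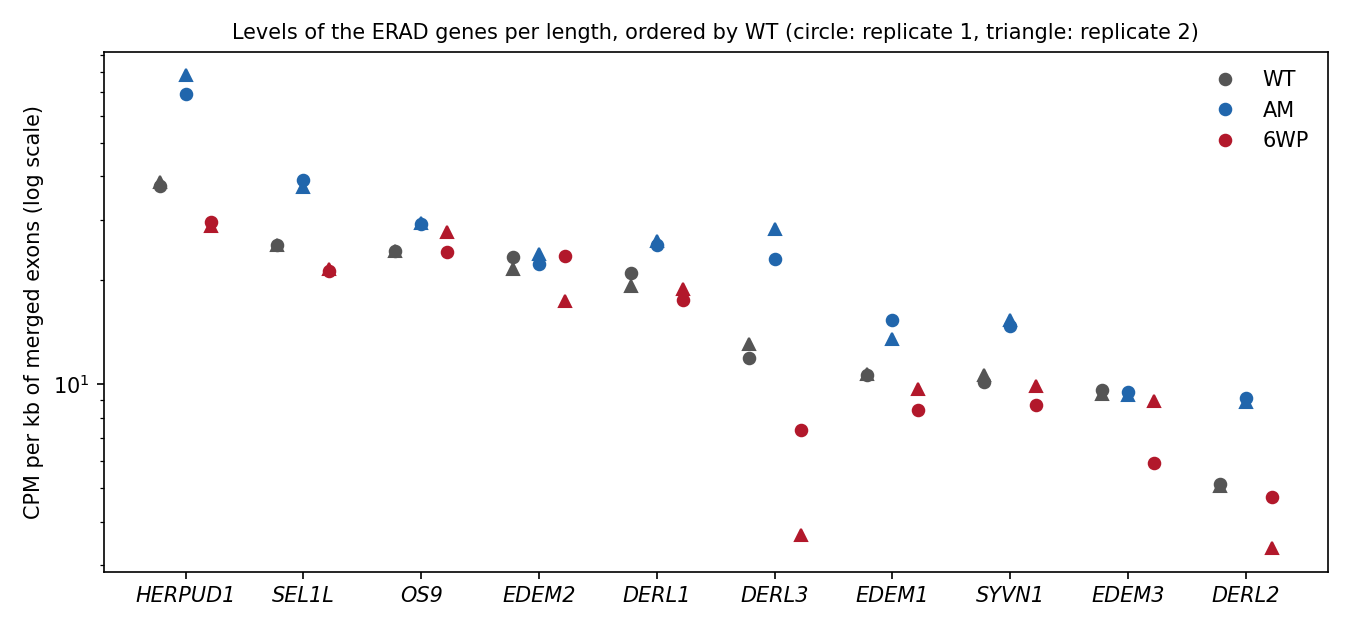
CPM per kb of merged exons (y axis, log scale) of the ERAD genes, ordered by their WT mean, with a circle for replicate 1 and a triangle for replicate 2 of WT, AM and 6WP cells. HERPUD1 lies between 28.7 and 78.5 CPM per kb and DERL2 between 3.35 and 9.14, and the DERL3 points spread from 3.66 to 28.2.

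A further 65 ERAD genes were listed by role, of which 64 were tested. The ligase gene ZNRF4 had 0 counts. In AM against WT, 12 of the 64 rose and 3 fell (23.4%, beside 17.7% of all genes), with a median log2 fold change of 0.12. In 6WP against AM, 8 rose and 13 fell (32.8%, beside 21.3%), with a median of -0.08. In 6WP against WT, 2 rose and 1 fell (4.69%, beside 3.00%), with a median of -0.0047. Upper quartile scaling and scaling by library size each turned the split of AM against WT to 6 higher and 5 lower.

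The J proteins of the ER lumen, co-chaperones that bring HSPA5 to misfolded proteins, numbered 3. All 3 were called higher in AM against WT, beside 7.74% of all tested genes. All 3 were called lower in 6WP against AM, beside 9.68% of all tested genes. Set against WT cells, 6WP cells had log2 values of 0.25 for DNAJC10 (adjusted p = 0.252, edgeR), -0.16 for DNAJB9 (adjusted p = 0.481, edgeR) and -0.53 for DNAJB11 (adjusted p = 0.0642, edgeR). DNAJB11 was at 122 and 117 CPM for WT, 303 and 288 for AM, and 91.0 and 73.7 for 6WP. Its log2 fold change was 1.31 in AM against WT (SE 0.13, adjusted p = 0.00219, edgeR) and -1.84 in 6WP against AM (SE 0.13, adjusted p = 0.00108, edgeR). DNAJC10, a disulfide reductase that opens substrates for export, rose by 1.16 in AM against WT cells (SE 0.12, adjusted p = 0.00258, edgeR) and fell by 0.90 in 6WP against AM cells (adjusted p = 0.00397, edgeR). DNAJB9 changed in the same directions, by 0.65 and -0.81.

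Of 9 accessory proteins of the ligase complex, 2 rose in AM against WT (22.2%, beside 17.7% of all tested genes). In 6WP against AM, 3 fell (33.3%, beside 21.3%). SELENOK, a selenoprotein of the ER membrane, was at 67.9 and 63.9 CPM for WT, 121 and 132 for AM, and 57.1 and 42.3 for 6WP. It rose by 0.94 (SE 0.15, adjusted p = 0.00845, edgeR) and fell by 1.35 (SE 0.15, adjusted p = 0.00272, edgeR) in these comparisons. The others were SELENOS in both comparisons and AUP1 in 6WP against AM, named here after their values were seen. Of 5 ubiquitin-conjugating enzymes, 1 rose in AM against WT (20%, beside 17.7% of all tested genes). That gene was UBE2J1, with 0.41 on the log2 scale, likewise named afterwards.

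Extraction from the membrane is driven by the ATPase VCP with its cofactors UFD1 and NPLOC4. VCP was at 604 and 590 CPM for WT, 800 and 781 for AM, and 446 and 379 for 6WP. The groups did not overlap. It rose by 0.40 on the log2 scale in AM against WT (SE 0.12, adjusted p = 0.047, edgeR) and fell by 0.94 in 6WP against AM (SE 0.12, adjusted p = 0.00357, edgeR). Between 6WP and WT the value was -0.53 (adjusted p = 0.0533, edgeR).

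UFD1 rose by 0.66 on the log2 scale in AM against WT (adjusted p = 0.0325, edgeR) and fell by 0.86 in 6WP against AM (adjusted p = 0.0129, edgeR). NPLOC4 had values of 0.24 and -0.33 in these comparisons (adjusted p = 0.212 and 0.0921, edgeR). The 18 genes of extraction and delivery were divided in 6WP against AM, with 3 higher and 3 lower (33.3%, beside 21.3% of all tested genes). UBXN1, a protein that binds VCP and ubiquitin chains, was at 65.5 and 71.1 CPM for WT, 52.4 and 58.1 for AM, and 104 and 117 for 6WP. It rose by 1.00 on the log2 scale in 6WP against AM (SE 0.12, adjusted p = 0.00334, edgeR) and by 0.69 in 6WP against WT (SE 0.12, adjusted p = 0.0282, edgeR), with both 6WP libraries above the other 4.

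Of 10 other ubiquitin ligases of the ER membrane, 0 rose and 1 fell in AM against WT (10%, beside 17.7% of all tested genes). In 6WP against AM, 3 rose and 0 fell (30%, beside 21.3%). TMEM129 was at 39.4 and 42.2 CPM for WT, 39.1 and 42.6 for AM, and 64.8 and 58.2 for 6WP, so 6WP stood above the other groups and these overlapped. Its log2 fold change was 0.59 in 6WP against WT (SE 0.12, adjusted p = 0.0425, edgeR) and 0.59 in 6WP against AM (adjusted p = 0.0137, edgeR). The other higher ligases in 6WP against AM were TRIM13 and RNF145, and the one lower in AM against WT was RNF170, all 3 named after their values were seen.

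Among 12 membrane scaffolds and adaptors, 1 rose and 1 fell in AM against WT (16.7%, beside 17.7% of all tested genes). In 6WP against AM, 1 rose and 3 fell (33.3%, beside 21.3%). INSIG1, which links sterol levels to degradation of HMG-CoA reductase, was at 239 and 220 CPM for WT, 308 and 295 for AM, and 124 and 80.3 for 6WP. It fell by 1.17 on the log2 scale in 6WP against WT (SE 0.19, adjusted p = 0.0222, edgeR) and by 1.56 in 6WP against AM (SE 0.19, adjusted p = 0.00338, edgeR). TMEM67, a membrane protein of cilia and the ER, fell by 1.01 in AM against WT (SE 0.15, adjusted p = 0.00759, edgeR).

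Among 7 further genes of glycan recognition and trimming, 1 rose and 1 fell in each of the comparisons with AM cells. That is 28.6% in each, beside 17.7% of all tested genes in AM against WT and 21.3% in 6WP against AM. MAN1A1, a mannosidase of the early secretory pathway, was at 49.0 and 41.9 CPM for WT, 18.7 and 20.7 for AM, and 37.7 and 33.2 for 6WP. It was lowest in AM cells, where HERPUD1 and DERL3 were highest. It fell by 1.21 on the log2 scale in AM against WT (SE 0.14, adjusted p = 0.00333, edgeR). The other called gene in both comparisons was TXNDC11, with 0.55 and -0.58, named after its values were seen.

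**Figure D4:**
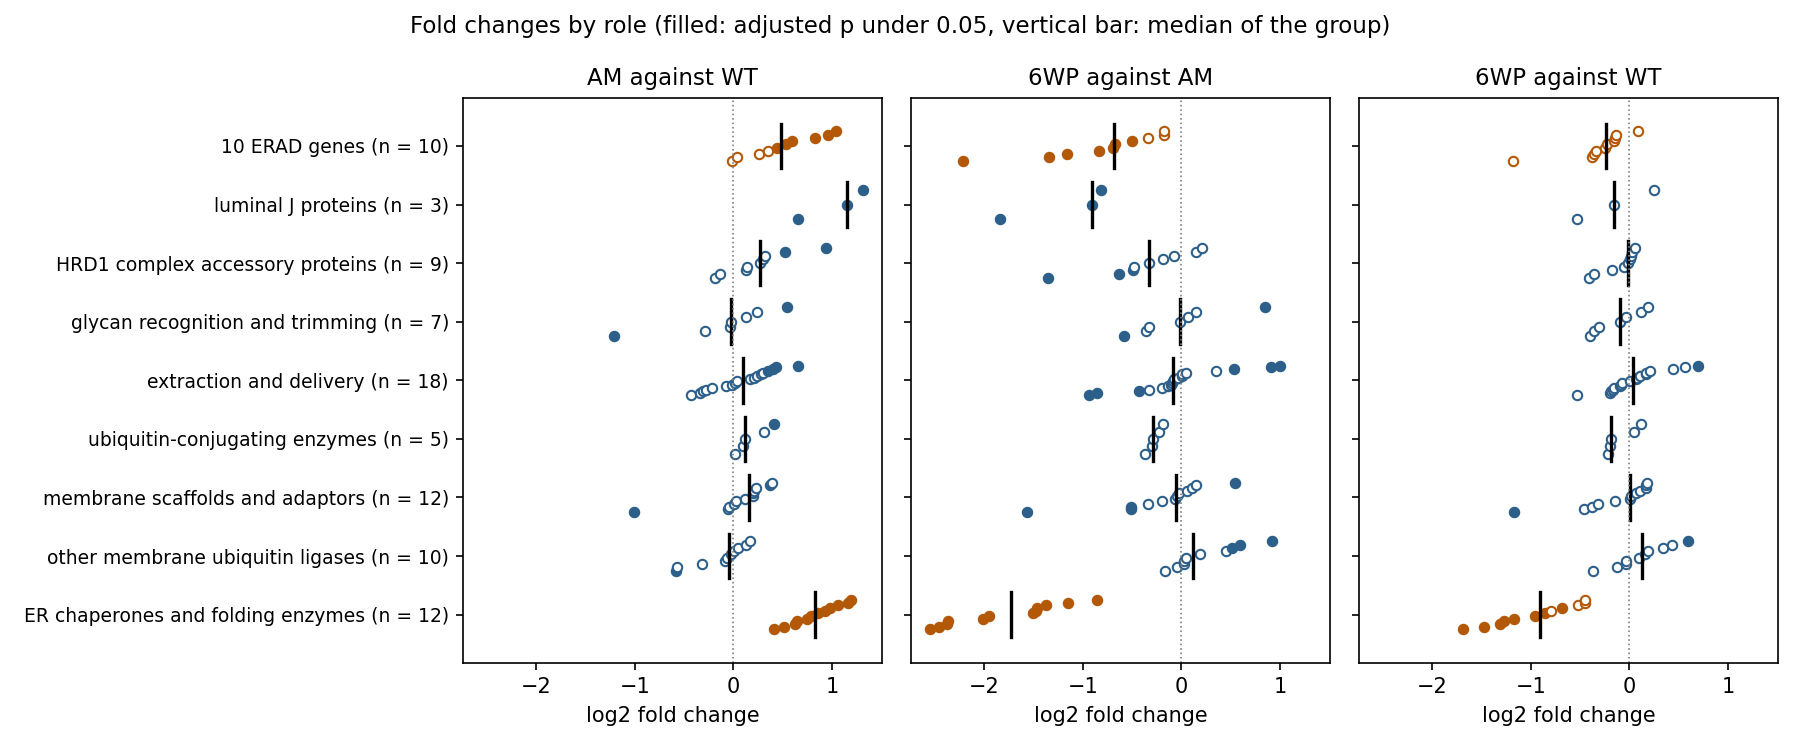
log2 fold change (x axis) of single genes, grouped by role (rows), in the 3 comparisons (panels), filled where the adjusted p is under 0.05, with a vertical bar at the median of each group. The 10 ERAD genes have medians of 0.49, -0.68 and -0.24, and the ER chaperones and folding enzymes have medians of 0.82, -1.73 and -0.91.

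The 12 ER chaperones and folding enzymes were set beside the ERAD genes because both are known targets of the unfolded protein response. All 12 were called higher in AM than in WT cells, beside 7.74% of all tested genes. All 12 were also called lower in 6WP than in AM cells, beside 9.68% of all tested genes. In 6WP against WT, all 12 had lower values and 8 of the 12 were called lower, beside 1.37% of all tested genes and 0 of the 10 ERAD genes (edgeR). HSPA5, the main chaperone of the ER lumen, was at 1545 and 1534 CPM for WT, 2705 and 2874 for AM, and 444 and 512 for 6WP. In 6WP against WT its log2 value was -1.69 (SE 0.12, adjusted p = 0.00338, edgeR). The difference between the lists was not tested.

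The sensors and transcription factors of the unfolded protein response did not share 1 direction. XBP1, the factor known to drive many ERAD genes, was at 211 and 198 CPM for WT, 273 and 307 for AM, and 203 and 184 for 6WP. Its log2 fold change was 0.51 in AM against WT (SE 0.11, adjusted p = 0.023, edgeR) and -0.58 in 6WP against AM (SE 0.11, adjusted p = 0.013, edgeR). These are gene totals and do not separate the spliced form of XBP1 mRNA.

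ERN1, the sensor IRE1 that splices XBP1, was at 12.9 and 15.2 CPM for WT, 10.3 and 9.75 for AM, and 23.2 and 31.1 for 6WP. It rose by 0.95 in 6WP against WT (SE 0.18, adjusted p = 0.0359, edgeR) and by 1.44 in 6WP against AM (SE 0.18, adjusted p = 0.00363, edgeR), so its highest group was the lowest group of HERPUD1. ATF6, a membrane-bound factor, rose by 0.59 in 6WP against AM (SE 0.10, adjusted p = 0.0092, edgeR). Of the 9 regulators, 2 rose and 1 fell in AM against WT (33.3%, beside 17.7% of all tested genes). In 6WP against AM, 4 rose and 2 fell (66.7%, beside 21.3%). In 6WP against WT, 3 rose and 0 fell (33.3%, beside 3.00%). The 3 higher in 6WP against WT were ERN1, ATF4 and DDIT3, the latter pair named after their values were seen.

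The genes most like HERPUD1 over the 6 libraries were found by the root mean square difference of log2 CPM, centred on each gene's mean, among 12037 tested genes with a mean log2 CPM of at least 1. They were CBWD1 (0.0756), HSPB8 (0.0815), POLE2 (0.0957), GLB1L2 (0.0967) and MSTO1 (0.114). CBWD1 has near-identical copies in the genome, so its counts are uncertain. For DERL3, the gene with the largest fold change, the nearest were SDF2L1 (0.147), PLA2G3 (0.152), ABCG2 (0.172), CRELD2 (0.179) and RRM2 (0.196). SDF2L1 and CRELD2 are ER proteins of the chaperone list, and none of the 10 nearest genes was on the ERAD lists. SDF2L1 was at 35.05 and 40.7 CPM for WT, 82.9 and 90.7 for AM, and 20.3 and 13.4 for 6WP. It was picked by its likeness to DERL3 in these libraries, so the shared order of groups follows from that choice.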

How the data were processed

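Total RNA of 6 cultures was sequenced as 100 bp single end reads from a TruSeq stranded kit. The authors deposited 1 table of raw, whole-number counts by gene symbol. The submitters' processing notes name hg38, STAR 2.5.3a, featureCounts 1.5.3, Subread, StringTie 1.3.3, edgeR 3.22.3 and R 3.5.0, but the gene annotation and the strand setting of the counting were not given in the sources used here. In total 0 columns were left out. Reads of overlapping genes can be lost or shared at the counting step.

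The software was edgeR 4.0.16 with limma 3.58.1, and DESeq2 1.42.0 as an alternative, in R 4.3.3. The filter filterByExpr with the 3 groups kept 14672 of 29804 genes. TMM factors and a quasi-likelihood model without covariates were fitted to all 6 libraries, which leaves 3 residual degrees of freedom per gene. Tests are two-sided, with Benjamini-Hochberg adjustment over all tested genes and a threshold of 0.05. A standard error is the size of the log2 fold change over the root of its F value. The smallest p of an exact permutation test here is 0.333, so none was run. The fit was tested on simulated data.

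The members and lists were chosen with earlier results of these data known. All 10 ERAD genes are named, and from the further list VCP, UFD1, NPLOC4 and, for each comparison, the 5 genes with the smallest p among those with an adjusted p under 0.05. ATF6, XBP1, ERN1 and HSPA5 are named from the other lists, and the 5 most similar genes were listed for HERPUD1 and DERL3. UFD1, SELENOK and SELENOS were matched under older symbols. Exon lengths and overlaps came from GENCODE on GRCh38, and promoters from RefSeq (GRCh38.p14). Alternatives were other scalings, filters, DESeq2, leaving out each library, a replicate block, a fit to the groups compared, and other lengths. The canonical length and the half-sites were chosen after seeing the data.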

Additional observations from a re-analysis of the deposited data

How the results depend on the processing

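With 2 libraries a group, leaving 1 out leaves a lone sample that is assumed to vary like the other groups, and the counts then ranged widely. For the 10 ERAD genes they ran from 0 to 4 in 6WP against WT, 1 to 9 in 6WP against AM and 0 to 8 in AM against WT. For the further ERAD genes they ran from 0 to 18, 1 to 34 and 0 to 31, and for all genes from 0 to 3801, 115 to 6799 and 46 to 6714, in the same order. The cause was not tested.

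In 6WP against WT, no filter beyond 1 count in total gave 1 ERAD gene, 6 further ERAD genes and 894 genes in all, DESeq2's Wald test gave 2, 8 and 1124, and a fit to the 2 groups only gave 0 further genes and 98 in all. That fit gave 1299 genes in all in 6WP against AM, and 31 further genes and 6635 in all in AM against WT. Under upper quartile scaling the split over all genes was 689 higher and 1832 lower in AM against WT (1136 and 1457 with TMM) and 2276 and 1062 in 6WP against AM (1711 and 1420 with TMM). Scaling by library size gave 729 and 1664 in AM against WT.

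Signs turned for EDEM2 in AM against WT under upper quartile scaling (-0.056) and scaling by library size (-0.025). With 1 library left out, signs turned in 5 places. EDEM2 ranged from -0.374 to 0.061 in 6WP against WT, from -0.411 to 0.0039 in 6WP against AM (both positive without 6WP replicate 2) and from -0.036 to 0.096 in AM against WT (negative without WT replicate 2 or AM replicate 2). OS9 ranged from -0.011 to 0.186 in 6WP against WT (negative without 6WP replicate 2), and EDEM3 from -0.046 to 0.0045 in AM against WT (positive without 6WP replicate 2).

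The ratio of highest to lowest level was 8.998 with the longest transcript and 9.26 with the canonical one.

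Replicates share numbers across groups, but same-numbered libraries did not deviate together (correlations of 0.0831 for WT with AM, 0.112 for WT with 6WP and -0.0573 for AM with 6WP). With a replicate block, 5 ERAD genes were called in AM against WT (EDEM1 was lost), 7 in 6WP against AM and 0 in 6WP against WT. The further list gave 11, 20 and 2, and all genes gave 2485, 3069 and 393, in this order.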
